A study of Rattus norvegicus with 24 samples.

Results

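Genes of cholesterol and fatty acid synthesis and of lipid handling were followed in the retina of rats made diabetic with streptozotocin (STZ). The set held 42 genes chosen by their known role: the mevalonate steps, the steps from squalene to cholesterol, acetoacetyl-CoA thiolases, sterol sensing, lipoprotein uptake and efflux, sterol esters and oxidation, fatty acid synthesis and desaturation, and lipid binding. Every array probe whose RefSeq accession matched one of these symbols was taken. There were 40 such probes for 34 of the 42 genes, out of 4675 probes for 4013 genes that could be given a symbol. Pmvk, Nsdhl, Acat2, Insig1, Scap, Srebf1, Apoe and Fabp5 had no probe with a matched accession and were not analysed here.

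Male Sprague Dawley rats received an intraperitoneal injection of STZ, a toxin of the insulin-producing pancreatic beta cells, or of the citrate vehicle alone. Retinas were taken 1 or 3 months after the injection, which gave the groups 1M Control, 1M STZ, 3M Control and 3M STZ, each with 6 arrays described as biological replicates. For the younger controls the study's list of animals is shorter than the list of arrays, and whether an animal was used more than once there is not known. The controls were matched for age, the exact ages were not given in the sources used here, and STZ rats entered the study only with a raised blood glucose and were given no insulin. The model therefore lacks insulin as well as having high glucose, and the RNA came from the whole retina, so that fewer cells of a type and less RNA per cell cannot be told apart.

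Cells make cholesterol from acetyl-CoA through mevalonate, the isoprenoid farnesyl diphosphate and the first sterol, lanosterol. The transcription factors of the SREBP family switch on most genes of this pathway and of fatty acid synthesis, together with the factors NF-Y and Sp1. When sterol is plentiful, the Insig proteins hold SREBP and its escort Scap in the endoplasmic reticulum. The retina both makes cholesterol and takes it up from the blood, and its photoreceptor membranes are rich in long polyunsaturated fatty acids.

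The promoters of 4 sterol synthesis genes are printed to show the sequences that precede the genes described below, 3 of them with a higher level in 3M STZ arrays (Hmgcs1, Mvk and Dhcr7) and 1 that dropped in rank within the array (Cyp51). They are taken from RefSeq on build GRCr8, 5′ to 3′ along the gene, from 250 bases before the start of the gene to 50 after it. Capitals mark the CCAAT box of NF-Y and the GGGCGG box of Sp1 on either strand, which did not overlap in any member promoter. The windows lie at chr2:53382054-53382353 (+ strand), chr12:47819454-47819753 (- strand), chr1:208444184-208444483 (+ strand) and chr4:30991443-30991742 (+ strand).
Hmgcs1: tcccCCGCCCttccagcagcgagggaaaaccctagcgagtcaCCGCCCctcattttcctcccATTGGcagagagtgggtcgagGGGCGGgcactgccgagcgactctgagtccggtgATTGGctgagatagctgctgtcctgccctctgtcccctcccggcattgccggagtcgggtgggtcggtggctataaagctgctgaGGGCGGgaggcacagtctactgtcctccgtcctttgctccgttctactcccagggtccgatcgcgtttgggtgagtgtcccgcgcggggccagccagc
Mvk: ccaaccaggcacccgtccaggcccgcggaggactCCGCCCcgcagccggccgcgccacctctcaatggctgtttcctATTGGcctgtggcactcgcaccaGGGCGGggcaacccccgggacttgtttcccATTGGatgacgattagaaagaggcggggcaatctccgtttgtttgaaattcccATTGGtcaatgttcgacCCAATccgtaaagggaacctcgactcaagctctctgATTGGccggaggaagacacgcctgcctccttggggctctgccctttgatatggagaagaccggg
Dhcr7: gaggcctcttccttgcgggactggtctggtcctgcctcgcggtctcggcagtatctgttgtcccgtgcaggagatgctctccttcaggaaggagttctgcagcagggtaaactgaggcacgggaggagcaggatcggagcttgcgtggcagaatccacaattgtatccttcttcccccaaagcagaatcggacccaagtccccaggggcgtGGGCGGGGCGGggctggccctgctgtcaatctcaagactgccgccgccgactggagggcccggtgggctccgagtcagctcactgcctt
Cyp51: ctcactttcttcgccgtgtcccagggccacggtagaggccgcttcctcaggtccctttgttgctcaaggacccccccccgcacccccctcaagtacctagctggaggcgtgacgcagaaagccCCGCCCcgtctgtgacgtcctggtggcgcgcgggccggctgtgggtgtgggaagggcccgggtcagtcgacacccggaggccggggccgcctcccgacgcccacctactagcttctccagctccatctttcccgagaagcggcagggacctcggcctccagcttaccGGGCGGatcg

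Windows were at hand for 33 of the 42 genes, with 36 windows because Apoe had 3 and Srebf1 had 2. The CCAAT box was found in 26 of the 36 (72.2%), against 37.5% of all 33469 promoter windows. Among the sterol synthesis members it was found in 11 of 13, with 5 copies in the Mvk window and 0 in those of Dhcr7 and Cyp51. The GGGCGG box was found in 27 of 36 (75.0%), against 33.1% of all windows, and the E-box CACGTG in 4 of 36 (11.1%), against 6.42%. The sterol regulatory element core TCACNCCAC was in 0 of the 36 windows and in 1.12% of all windows. That says only that these letters are not in these windows.

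Levels are given as scaled intensity, the background-subtracted spot intensity divided by the median of the rat probes of the same array, so that 1 is the middle of an array. Brightness depends on the probe, and levels of different probes were not compared. A probe was tested with limma where the median of its scaled intensities on the 24 arrays exceeded 0.554, which held for 29 of the 40 member probes (26 genes). Differences are STZ minus Control on the log2 scale, and a probe was called higher or lower at a Benjamini-Hochberg adjusted p under 0.05, over all 22025 tested probes, and at least a 1.2-fold difference.

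Array-wide shifts bear on every value at 3 months. The median of all tested probes was 0.44 higher in 3M STZ than in 3M Control on the log2 scale after scaling to the array median, and 0.16 after quantile normalization, which gives every array the same distribution. Of all calls at 3 months, 93.4% were higher by the former and 77.7% by the latter. Over all 33849 rat probes, dim ones included, the median difference was 0.19 with scaling to the array median. Before scaling, the median intensity of an array was 149 to 308 in 3M Control and 125 to 164 in 3M STZ. The interquartile range of an array on the log2 scale was 1.61 to 2.14 in 3M Control and 1.96 to 2.29 in 3M STZ. It was 2.18 to 2.36 in 1M Control and 2.19 to 2.33 in 1M STZ. The array 3M Control 2 stood apart, with a median correlation of 0.842 with its own group, against 0.957 to 0.973 for the other 3M Control arrays. To a lesser degree 3M STZ 1 (0.916, others 0.967 to 0.976) and 1M Control 5 (0.925, others 0.965 to 0.980) did too. The retinal label held, since all 5 rod markers with a probe were above the limit, with a summed scaled intensity of 179 to 407 in 3M Control and 321 to 503 in 3M STZ.

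At 3 months the probes of lipid genes were mostly higher in diabetic retina, and their share was close to that of the array as a whole. Of the 29 tested, 16 were called higher, where 50.5% of all tested probes and 54.1% of those with a symbol were, and 0 were called lower, where 3.55% of all tested probes were. The median difference was 0.48 on the log2 scale, the same as for all probes with a symbol (0.48), and 15 of the 29 lay above the median of all probes. The members were also set beside other probes of like signal, with the probes that had a symbol split by mean level into 3 ranges with about as many probes in each. In the brightest range 10 of 13 members were called higher (76.9%) against 78.0% of the others, in the middle range 6 of 12 against 56.8%, and in the dimmest 0 of 4 against 27.8%. With quantile normalization 3 members were called higher and 2 lower, where 24.6% and 7.03% of all tested probes were, and the median difference was 0.05. Without the array 3M Control 2, 12 were called higher, and without 3M STZ 1 or 1M Control 5 the number was 16, with 1 called lower in the latter case.

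**Figure D1:**
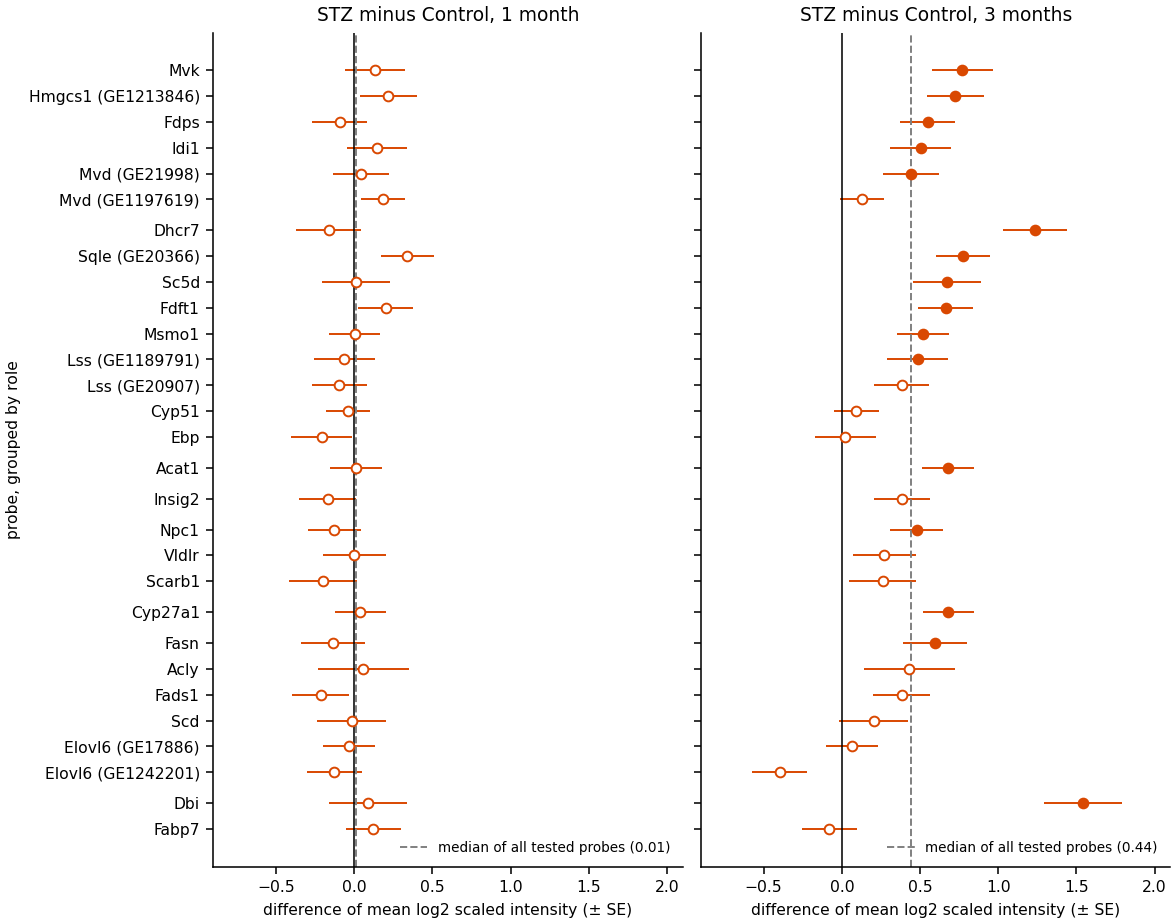
Difference of the mean log2 scaled intensity, STZ minus Control, for the 29 tested member probes at 1 month and at 3 months (horizontal axis; bars are ± 1 SE of the limma model, 6 arrays per group, probes grouped by role on the vertical axis). Filled points were called; 16 are filled at 3 months and 0 at 1 month, and the dashed line marks the median of all 22025 tested probes (0.44 and 0.01).

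Markers of the cell types of the eye were counted in the same way. Of all tested probes 50.5% were called higher and 24.1% moved up in rank. Of the Mueller glia and astrocyte markers, 5 of 8 tested probes were called higher at 3 months and 4 moved up in rank, and their summed scaled intensity was 50.7 to 141 in 3M Control and 140 to 189 in 3M STZ. The myelin markers had 4 of 5 tested probes higher and 3 up in rank, with sums of 15.0 to 20.7 and 24.5 to 33.1. The lens markers had 7 of 8 higher but 2 up in rank, with sums of 130 to 325 and 407 to 827, and the bipolar and amacrine markers 4 of 5 and the endothelial markers 2 of 2 higher with 0 up in rank. Rods and ganglion cells had 2 of 5 higher each with 0 up in rank, and microglia and macrophages had 2 of 3 higher and 2 up in rank. Slc6a9, among the bipolar and amacrine markers, moved down in rank. The retinal pigment epithelium went the other way, with 0 of 3 tested probes higher, 1 lower and 1 down in rank. Its sums were 3.77 to 14.8 in 3M Control and 3.26 to 98.4 in 3M STZ. Whether these cells had a part in the values below was not tested.

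The mevalonate steps rose at 5 of their 6 tested probes with array-median scaling and at 0 with quantile normalization, where the median difference of the 6 was -0.04 in place of 0.53. Mvk, the kinase that phosphorylates mevalonate, had scaled intensities with a lowest, median and highest value of 3.63, 6.87 and 9.80 in 3M Control and 8.97, 10.45 and 12.1 in 3M STZ. The groups overlapped by 1 STZ array, with 5 of 6 STZ arrays above every control. The difference was 0.77 ± 0.19 (SE), or 1.71-fold, with a limma adjusted p of 0.00272.

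Hmgcs1, the synthase that joins acetyl-CoA and acetoacetyl-CoA into HMG-CoA, had values of 11.8, 21.4 and 31.3 in 3M Control and 27.4, 35.7 and 38.2 in 3M STZ. Again 5 of 6 STZ arrays were above the highest control. The difference was 0.73 ± 0.18 (limma adjusted p = 0.00281), but it was -0.05 after quantile normalization. Fdps, which makes farnesyl diphosphate, ran from 7.51 through 12.9 to 22.99 in 3M Control and from 14.9 through 19.1 to 21.2 in 3M STZ. All STZ arrays lay inside the control range, and all 6 exceeded the control median. It rose by 0.55 ± 0.18 with limma (adjusted p = 0.0127), where quantile normalization gave -0.11.

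Idi1, the isomerase of isopentenyl diphosphate, rose by 0.50 ± 0.19 (limma adjusted p = 0.0308), where quantile normalization gave -0.03. For Mvd, the decarboxylase before it, one probe (GE21998) rose by 0.44 ± 0.18 and the brighter one (GE1197619) differed by 0.13 ± 0.14, with limma adjusted p of 0.0394 and 0.431, and quantile normalization gave -0.02 and -0.46. The calls of Idi1 and of Mvd were both lost when any of 7 single arrays was left out, 3M Control 2 among them.

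The steps from squalene to cholesterol ran from 0.02 to 1.23, with 6 of 9 tested probes higher and a median difference of 0.52, against 2 higher, 1 lower and a median of 0.23 with quantile normalization. Dhcr7, the reductase of 7-dehydrocholesterol that ends the pathway, had values of 0.91, 1.85 and 2.76 in 3M Control and 3.48, 4.08 and 5.11 in 3M STZ. Every STZ array was above every control array. The difference was 1.23 ± 0.21, or 2.35-fold (limma adjusted p = 0.000173), which is 0.79 above the median of all probes, and it was 0.92 after quantile normalization. It was called in each of 24 fits that left out 1 array, with 1.04 without 3M Control 2.

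Sqle, the epoxidase that starts the sterol part of the pathway, ran from 0.71 through 1.30 to 1.97 in 3M Control and from 1.60 through 2.22 to 2.58 in 3M STZ. The ranges overlapped, with 4 of 6 STZ arrays above the highest control. The difference of 0.78 ± 0.17 (limma adjusted p = 0.00117) was 0.67 after quantile normalization. Sc5d, the desaturase that makes 7-dehydrocholesterol, had values of 0.84, 2.01 and 2.62 in 3M Control and 2.20, 2.71 and 4.01 in 3M STZ. Only 3 of 6 STZ arrays were above the highest control, and it rose by 0.67 ± 0.22 (limma adjusted p = 0.0126), with 0.43 and no call after quantile normalization (adjusted p = 0.185).

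Fdft1, which makes squalene, rose by 0.66 ± 0.17 and Msmo1, a methylsterol oxidase, by 0.52 ± 0.16 with limma (adjusted p = 0.00380 and 0.0116), but by quantile normalization neither was called, at 0.06 and 0.02 (adjusted p = 0.757 and 0.900). Lss, the cyclase that forms lanosterol, had 2 probes with differences of 0.49 ± 0.19 and 0.38 ± 0.18, of which the first was called (limma adjusted p = 0.0371 and 0.0678). The call of Lss was lost without any of 6 arrays. Cyp51, the demethylase of lanosterol, and Ebp, a sterol isomerase, were not called, with differences of 0.09 ± 0.14 and 0.02 ± 0.19 (limma adjusted p = 0.585 and 0.924) that were -0.37 and -0.01 after quantile normalization. For Cyp51 the scaled intensities were 2.33, 2.66 and 3.44 in 3M Control and 2.20, 2.88 and 3.39 in 3M STZ, so that the groups covered the same range.

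Acat1, a mitochondrial thiolase that also serves ketone body breakdown, had values of 2.76, 3.89 and 4.58 in 3M Control and 4.34, 6.50 and 6.75 in 3M STZ. One STZ array fell inside the control range and 5 lay above it. It rose by 0.68 ± 0.16 (limma adjusted p = 0.00221), and by 0.15 after quantile normalization, where it was not called (adjusted p = 0.441). Insig2, the only sterol sensing member tested, had values of 1.23, 1.95 and 2.86 in 3M Control and 1.60, 2.70 and 3.18 in 3M STZ. It was not called (0.39 ± 0.18, limma adjusted p = 0.0706).

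**Figure D2:**
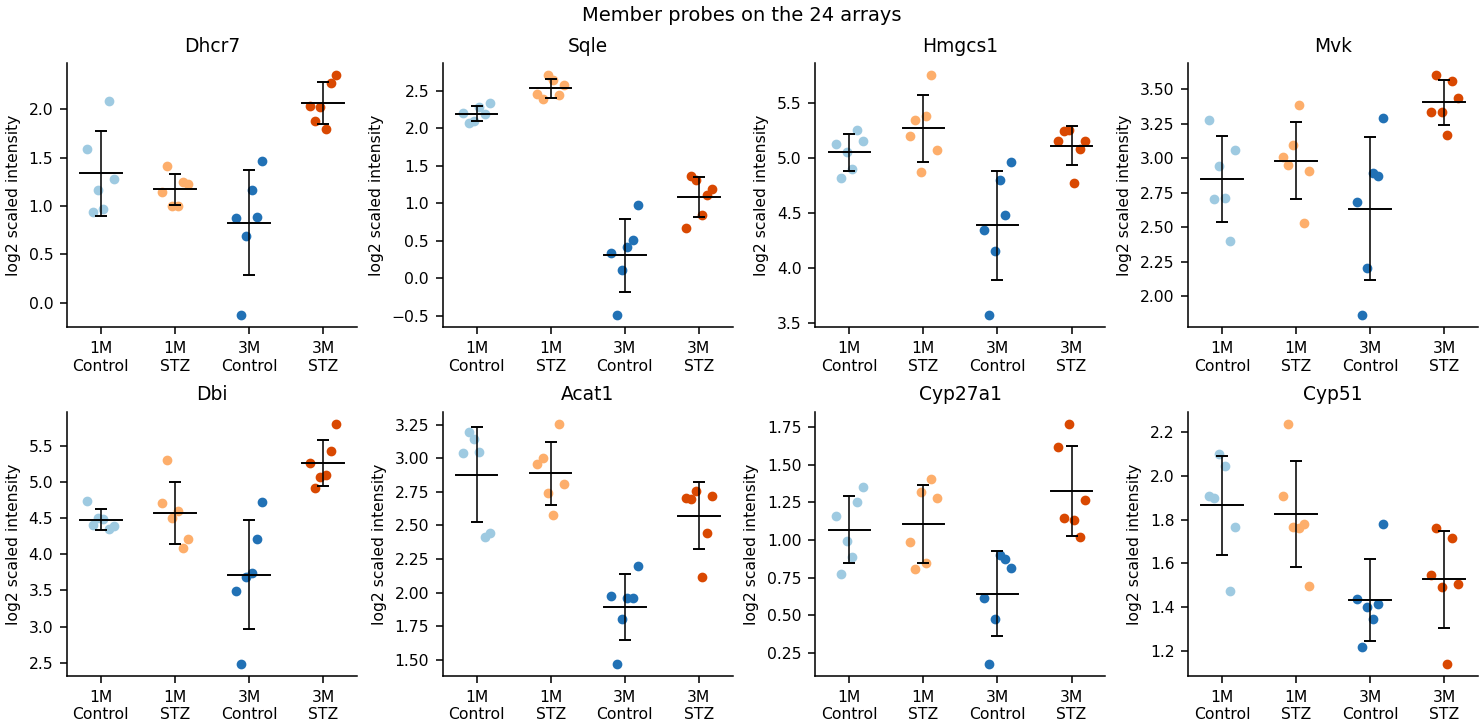
Log2 scaled intensity of 8 member probes on each of the 24 arrays (points, 6 per group; horizontal lines are group means and bars ± 1 SD; the vertical axes differ). For Dhcr7, Dbi and Cyp27a1 the 3M STZ arrays lie above all 3M Control arrays, and for Sqle the 1M STZ arrays lie above all 1M Control arrays.

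Lipoprotein uptake and transport had 1 of 3 tested probes called, and 0 with quantile normalization. Npc1, which moves cholesterol out of the lysosome, had values of 2.35, 3.15 and 4.38 in 3M Control and 4.04, 4.47 and 5.07 in 3M STZ, with 4 of 6 STZ arrays above the highest control. It rose by 0.48 ± 0.17 with limma (adjusted p = 0.0202), where quantile normalization gave -0.02, and the call was lost without 3M Control 3 (adjusted p = 0.0647). Vldlr, a receptor for triglyceride-rich lipoproteins, ran from 0.62 through 0.83 to 1.54 in 3M Control and from 0.70 through 1.12 to 1.38 in 3M STZ. Scarb1, the receptor for high-density lipoprotein, ran from 3.29 through 5.63 to 7.43 and from 4.74 through 6.33 to 8.93. Both sets of arrays overlapped widely. The differences of 0.27 ± 0.20 and 0.26 ± 0.22 were not called (limma adjusted p = 0.249 and 0.298). That of Scarb1 was -0.28 after quantile normalization. Without 3M Control 2 the differences were 0.17 for Vldlr and 0.12 for Scarb1.

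Cyp27a1, the mitochondrial sterol 27-hydroxylase by which the retina and other tissues oxidize cholesterol for export, was called higher in level but not in rank. Its values were 1.13, 1.64 and 1.87 in 3M Control and 2.03, 2.31 and 3.41 in 3M STZ, with no overlap. It rose by 0.68 ± 0.16, or 1.60-fold (limma adjusted p = 0.00194), and by 0.40 after quantile normalization, where it was not called (adjusted p = 0.0740). The change in rank within the array was 6.22 ± 2.61 percentage points (limma adjusted p = 0.0752).

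Fatty acid synthesis and desaturation had 1 of 6 tested probes called higher and a median difference of 0.29, against 1 lower and a median of 0.06 with quantile normalization. Fasn, fatty acid synthase, had values of 3.06, 6.58 and 9.98 in 3M Control and 7.58, 10.02 and 11.1 in 3M STZ, with 3 of 6 STZ arrays above the highest control. It rose by 0.60 ± 0.20 with limma (adjusted p = 0.0169), but was not called without 3M Control 2 (0.38, adjusted p = 0.0557). Acly, which makes cytosolic acetyl-CoA from citrate, ran from 3.85 through 10.9 to 17.7 in 3M Control and from 10.8 through 14.1 to 15.5 in 3M STZ, inside the control range. Its difference of 0.43 ± 0.29 was not called (limma adjusted p = 0.203) and was -0.14 after quantile normalization. Without 3M Control 2 the difference of Acly was 0.16.

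Fads1, the delta-5 desaturase of polyunsaturated fatty acids, ran from 1.03 through 1.30 to 2.00 in 3M Control and from 1.45 through 1.67 to 2.38 in 3M STZ. The difference was 0.38 ± 0.18 (limma adjusted p = 0.0743). Scd, the stearoyl-CoA desaturase, differed by 0.20 ± 0.22 (limma adjusted p = 0.433). Elovl6, which lengthens palmitate, was the only gene with opposite signs at its tested probes, 0.06 ± 0.17 at the brighter (GE17886) and -0.40 ± 0.18 at the other (GE1242201), neither of them called (limma adjusted p = 0.757 and 0.0567).

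The widest difference of the set was at a lipid binding protein. Dbi, the acyl-CoA binding protein that carries fatty acyl-CoA and is also a ligand of the GABA receptor system, had values of 5.59, 13.1 and 26.3 in 3M Control and 30.0, 36.3 and 55.7 in 3M STZ. The groups did not overlap. The difference was 1.54 ± 0.25, or 2.91-fold (limma adjusted p = 0.000132), and 0.88 after quantile normalization. The control arrays spread widely, and without 3M Control 2 the difference was 1.30. Fabp7, a fatty acid binding protein of glia, ran from 0.85 through 1.06 to 2.15 in 3M Control and from 0.90 through 1.09 to 1.39 in 3M STZ and was not called (-0.08 ± 0.18, limma adjusted p = 0.711). With Dbi, Dhcr7 and Cyp27a1, 3 of 29 tested member probes had all 3M STZ arrays above all 3M Control arrays, where 9.49% of all tested probes did.

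The rank of a probe within its own array does not depend on how arrays are scaled, and it gave fewer changes. Rank is a percentile among all rat probes of the array, and a change in rank was called at an adjusted p under 0.05. At 3 months 3 of the 29 member probes moved up and 2 moved down, where 24.1% and 6.54% of all tested probes did (30.7% in either direction). The median change of the members was 0.61 percentage points, against 2.05 for all tested probes. Probes near the top of an array have little room to move, and among other probes of like signal the shares that moved up were 6.18% in the brightest range (0 of 13 members), 32.0% in the middle (3 of 12) and 41.6% in the dimmest (0 of 4).

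Dhcr7 moved up the most, from a rank of 45.9 to 75.2 (median 72.0) in 3M Control to 79.3 to 84.4 (median 81.9) in 3M STZ, with no overlap. The change was 13.5 ± 3.70 percentage points (limma adjusted p = 0.00854), and it was 8.98 without 3M Control 2. Sqle went from 34.9 to 68.0 (median 61.1) to 62.9 to 72.0 (median 68.7), which overlap, with a change of 11.5 ± 3.51 (limma adjusted p = 0.0166) and of 6.995 without that array. The dimmer probe of Lss gained 9.58 ± 3.61 (limma adjusted p = 0.0484), a call lost in 19 of 24 fits that left out 1 array.

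Cyp51 fell in rank although its log2 difference was above 0. It ranked at 77.7 to 83.4 (median 79.9) in 3M Control and 73.3 to 77.6 (median 75.0) in 3M STZ, with every STZ array below every control. The change was -5.04 ± 1.43 percentage points (limma adjusted p = 0.0107), and quantile normalization called it lower (-0.37, adjusted p = 0.0234). The dimmer Elovl6 probe fell by 11.2 ± 3.14 percentage points (limma adjusted p = 0.00998) and was called lower after quantile normalization (-0.62, adjusted p = 0.00844). Hmgcs1, Mvk and Dbi are bright probes near the top of each array, and their changes in rank were -0.08, 1.38 and 1.53 percentage points. When the brightness of each array before scaling was a covariate, 0 of 29 ranks changed and 7 log2 differences were called (Dbi, Dhcr7, Acat1, Fdft1, Sqle, Mvk and Cyp27a1). With that covariate 2679 of all 22025 tested probes were called in rank and 4058 in level.

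**Figure D3:**
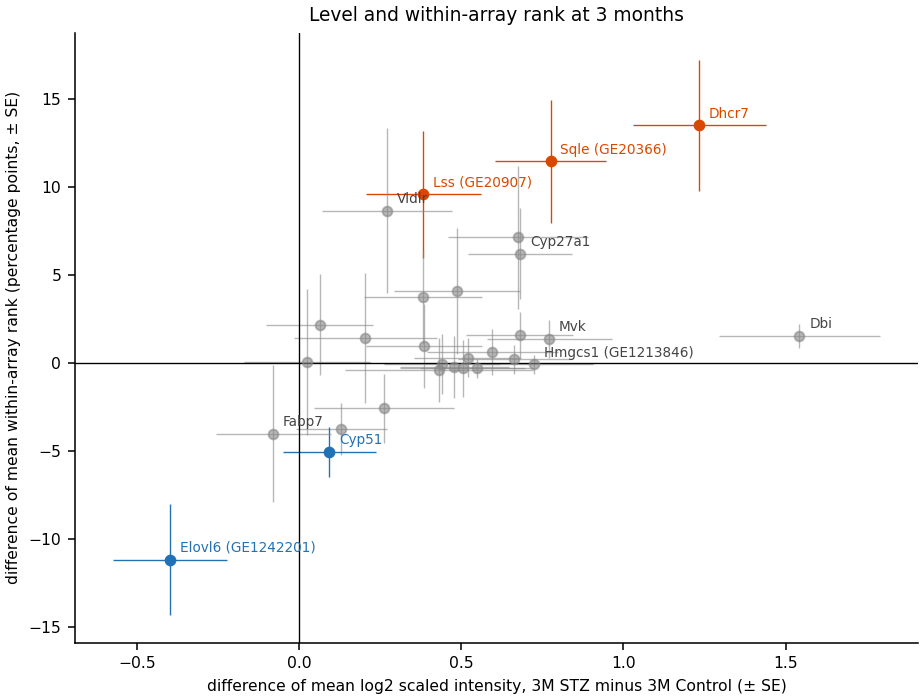
Difference of the mean within-array rank (vertical axis, percentage points) against the difference of the mean log2 scaled intensity (horizontal axis), 3M STZ minus 3M Control, for the 29 tested member probes (bars ± 1 SE of the limma models). Dhcr7, Sqle and one Lss probe (orange) moved up in rank, Cyp51 and one Elovl6 probe (blue) moved down, and grey probes were not called in rank.

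At 1 month none of the tested lipid genes was called. By limma 0 of 29 passed in level or in rank, and 0 had an unadjusted p under 0.05, where 0.00908% of all tested probes were called in level and 0.0% in rank. The differences ran from -0.21 (Fads1) to 0.34 (Sqle) with a median of 0.00. Sqle had the only groups that did not overlap, with values of 4.19, 4.58 and 5.05 in 1M Control and 5.24, 5.73 and 6.54 in 1M STZ. STZ arrays lay wholly above control arrays at 0.336% of all tested probes at this time. The difference was 0.34 ± 0.17 (limma adjusted p = 1.00). The methods' one-way test without equal variances called this probe at its own limit of p 0.01 but not after adjustment (adjusted p = 0.627).

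The effect of STZ differed between the time points, by the interaction term of the model, for 3 member probes, where 14.8% of all tested probes had a higher effect at 3 months. For Dhcr7 the effect was 1.40 higher at 3 months than at 1 month (limma adjusted p = 0.0132), with values of 1.91, 2.34 and 4.25 in 1M Control and 2.00, 2.28 and 2.66 in 1M STZ. For Dbi it was 1.45 higher (limma adjusted p = 0.0198), with 20.5, 21.8 and 26.7 in 1M Control and 17.0, 23.4 and 39.6 in 1M STZ. For Acat1 it was 0.67 higher (limma adjusted p = 0.0498), a call kept in only 6 of 24 fits that left out 1 array, while those of Dhcr7 and Dbi were kept in all 24. In rank, 0 members differed between the times, where 9.45% of all tested probes had a higher and 1.36% a lower effect at 3 months (limma adjusted p = 0.0558 for Dhcr7).

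Levels also stood apart between 1 and 3 months in both treatments, and 8 of the 40 member probes did not overlap between the times. Of all rat probes 24.2% were wholly higher at 3 months and 9.43% wholly lower. Of the probes above the limit 13.5% were wholly lower, as were 2 of the 29 tested member probes. Sqle (GE20366) was at 4.19 to 6.54 on the 1 month arrays and 0.71 to 2.58 on the 3 month arrays, and Vldlr was lower at 3 months too. The other 6 were higher at 3 months, namely Acaca, Lcat, Lpl, Hsd17b7, Fabp7 and the dim Sqle probe (0.16 to 0.29 at 1 month and 0.40 to 1.30 at 3 months). All 6 were dim at 1 month, and of all rat probes that did not pass the limit 60.5% were wholly higher at 3 months, against 4.77% of those that passed. Fabp7 (0.22 to 0.34 and 0.85 to 2.15) was above the limit on 12 arrays, all of them at 3 months, and so was tested only through those. The time after injection, the age of the rats and the handling of each set of arrays cannot be told apart here, and no test was made.

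The 6 genes with 2 probes show how far a value depends on the probe. Mvd and Lss had 1 of 2 tested probes called, and Elovl6 had none. For Sqle and Hmgcs1 the second probe was below the limit and went the other way. The dim Sqle probe (GE21596) had scaled intensities of 0.60, 0.79 and 1.30 in 3M Control and 0.40, 0.49 and 0.62 in 3M STZ, a difference of -0.81 ± 0.18 in a fit without the filter on dim probes (limma adjusted p = 0.00202). The dim Hmgcs1 probe (GE20461) had 0.24, 0.42 and 0.60 in 3M Control and 0.11, 0.34 and 0.41 in 3M STZ (-0.49 ± 0.25, limma adjusted p = 0.113). Both probes of Fads2, the delta-6 desaturase, were below the limit, with medians of 0.464 and 0.453 in 3M Control and 3M STZ for one (GE13080) and of 0.455 and 0.382 for the other (GE1294603). The direction given for Sqle and Hmgcs1 is therefore that of the brighter probe.

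**Figure D4:**
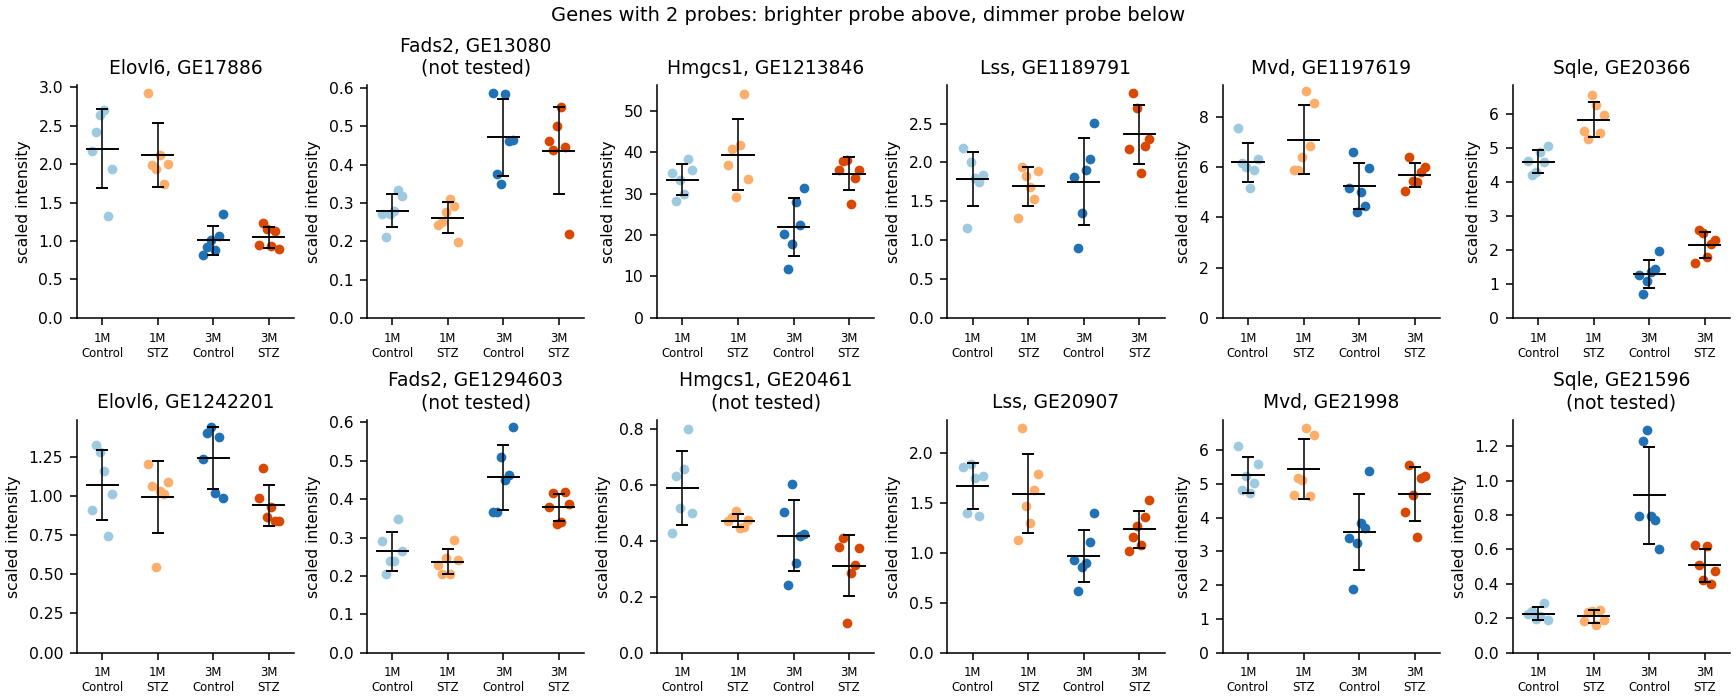
Scaled intensity (array median = 1) of both probes of the 6 genes with 2 probes on each of the 24 arrays, brighter probe above and dimmer probe below (points, 6 per group; lines are means and bars ± 1 SD; vertical axes start at 0 and differ). The bright Sqle and Hmgcs1 probes have a higher mean in 3M STZ than in 3M Control and the dim ones a lower mean.

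In all, 11 member probes were below the limit, and 10 of them had a lower median in 3M STZ than in 3M Control. Of the 1522 other probes with a symbol below the limit, 81.8% did too, so this direction was that of dim probes in general. These were the probes of Acaca and Acacb (the acetyl-CoA carboxylases), Fads2, Abca1 (the cholesterol efflux pump), Lcat and Soat1 (which esterify cholesterol in plasma and in cells), Lpl (lipoprotein lipase), Hsd17b7 (a sterol ketone reductase) and the second probes of Sqle and Hmgcs1. Lpl had 0.41, 0.63 and 0.73 in 3M Control and 0.22, 0.32 and 0.44 in 3M STZ. Hsd17b7 had 0.52, 0.89 and 1.24 in 3M Control and 0.36, 0.44 and 0.63 in 3M STZ. The ranges of both overlapped slightly. Without the filter Lpl was called lower in level (-0.82 ± 0.31, limma adjusted p = 0.0362). In rank Lpl, Hsd17b7 and the dim Sqle probe were called lower (-14.0, -21.3 and -19.8 percentage points). Lower calls were common without the filter, at 4792 of all 33849 probes in level and 5917 in rank.

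Other genes of the same pathways were counted from lists that are not members. Of 24 further sterol genes 9 had a probe, and of 11 tested probes 5 were called higher at 3 months and 0 lower, with a median difference of 0.44 (0.04 after quantile normalization), close to the 50.5% called higher and the median of 0.44 of all tested probes. The highest was Npc2, the lysosomal partner of Npc1, at 1.17, and it was among 3 of these probes that also moved up in rank. Of 30 further fatty acid genes 18 had a probe, and among 16 tested probes 8 calls were higher and 1 was lower, and the median difference was 0.42 (-0.05 after quantile normalization), again close to all tested probes. The highest was Clu, clusterin, a secreted chaperone that is part of lipoproteins, at 1.33. The only lower call was at a probe (GE21861) of Ppara, a nuclear receptor for fatty acids, at -0.49. The other tested Ppara probe (GE20241) differed by 0.04 and was not called (limma adjusted p = 0.848). At 1 month 0 were called in either list.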

How the data were processed

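Retinal RNA was hybridised to 24 CodeLink rat whole genome arrays, described as biological replicates. According to the authors, spots outside the manufacturer's specification were excluded, local background was subtracted and each array was normalized within itself; they deposited the linear intensity before and after that normalization, with no genome build named. For the present values, the deposited background-subtracted intensity was divided by its median over the 33849 rat probes on the same array, a floor of 0.01 was applied, and the result was converted to log2. Symbols came from a match of RefSeq accessions to the RefSeq table. The members, lists and tests were chosen with earlier results of these data known.

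Probes with a median scaled intensity above the 35th percentile (0.554) were tested with limma 3.58.1 in R 4.3.3, in 1 model of the 4 groups, on log2 values and on percentile ranks. The model was checked on simulated data. No member probe had a missing value and no 2 arrays were identical. In each role group the 3 genes with the largest difference at 3 months are named with values, plus any called lower, at 1 month, in the interaction or in rank against the log2 difference, with the brightest tested probe for each gene; of other lists only the extremes are named. Other values, such as those of dim probes, were chosen after they were seen. Alternatives were other scalings, filters, floors, tests, array weights, brightness as a covariate, a replicate block and leaving out each array. Depth has no meaning for arrays, and precision is limited by their number and by signal over background.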

Additional observations from a re-analysis of the deposited data

Results flagged for a closer look

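On 3 of 72 groups of 6 arrays examined (18 named genes in 4 groups), 1 array lay far from the other 5 by Dixon's test, where chance gives about 1 in 20. Acly was low on 1M Control 5, with a log2 scaled intensity of 2.21 against 3.92 to 4.18. Dbi was high on 1M Control 1, at 4.74 against 4.35 to 4.50. Hmgcs1 was low on 3M STZ 4, at 4.77 against 5.08 to 5.26. The effect of STZ was higher at 3 months than at 1 month by the interaction term of limma for Acat1 (0.67, adjusted p = 0.0498), Dbi (1.45, adjusted p = 0.0198) and Dhcr7 (1.40, adjusted p = 0.0132).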

How the results depend on the processing

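The 16 calls at 3 months became 5 with quantile normalization, 5 and 4 with the methods' test without and with adjustment, and 7 with array brightness as a covariate, and were 12 to 21 when 1 array was left out. Calls among all 22025 tested probes fell too, from 11911 to 6960, 3722, 1921 and 4058 in the same order. They were 8734 without 3M Control 2 and 14055 without 3M Control 6. The 0 calls at 1 month became 1 (Sqle) with the methods' test without adjustment, in level and in rank, and stayed 0 without any 1 array. With that test 262 of all tested probes were called in level and 331 in rank. The 3 changed effects became 14 with array weights and were 2 to 17 without 1 array. Among all 22025 tested probes the changed effects went from 3414 to 10325 with array weights. They were 759 without 3M STZ 6 and 9230 without 3M Control 6, where the members had 2 and 17. The 5 rank changes became 8 without the filter on dim probes, 3 with the limit on all 24 arrays, 1 and 1 with the methods' test, 2 with separate fits and 0 with array brightness, and were 4 to 8 without 1 array. Among all probes tested the 6753 rank changes became 12294 of 33849 without the filter and 2292 of 15176 with the limit on all arrays. They were 2605 and 955 with the methods' test, 3534 with separate fits and 2679 with array brightness. The median difference at 3 months was 0.053 with quantile normalization and 0.37 to 0.60 without 1 array, and at 1 month it was -0.07 to 0.02. The cause of these shifts was not tested.

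Signs turned with quantile normalization for Acly (-0.14), Cyp51 (-0.37), Fdps (-0.11), Hmgcs1 (-0.049), Npc1 (-0.024) and Scarb1 (-0.28), and among members outside the naming rule for Idi1 (-0.025), Mvd (-0.024 and -0.46 at its probes) and Ebp (-0.0087). They turned for Fabp7 with array weights (0.12), array brightness (0.050) and 1 array left out (-0.17 to 0.095). In rank they turned for Acly (0.68, brightness), Fabp7 (1.41, weights), Fasn (-0.40, weights), Insig2 (-1.26, weights, and -1.22, brightness) and Npc1 (0.42, weights, and 1.08, brightness). With 1 array left out, rank differences spanned 0 for Fabp7 (-6.65 to 0.38), Fasn (-0.50 to 1.14), Hmgcs1 (-0.13 to 0.012), Insig2 (-1.57 to 2.26) and Npc1 (-0.88 to 0.42). Outside the naming rule they did so for Ebp (-3.67 to 2.51), Scd (-1.16 to 2.60), Idi1 (-0.73 to 0.12), Msmo1 (-0.35 to 0.71) and Fdft1 (-0.052 to 0.49). The same held for a probe each of Lss (GE1189791, -0.21 to 5.43) and Mvd (GE21998, -1.97 to 0.60). In level the difference of Ebp spanned 0 too (-0.11 to 0.11).

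Deviations of arrays with the same replicate number correlated at -0.24 to 0.25. These values have no reference from arrays with different numbers, and so do not decide whether the numbers pair the samples. With the replicate number as a block, 16 members were called at 3 months, 0 at 1 month and 3 in the interaction, 5 ranks changed at 3 months and 0 at 1 month, and the medians were 0.48 and 0.00. Dim probes, near background, limit what can be said of Lpl, Abca1 and the other 9 probes below the limit.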
